A study of Mus musculus with 6 samples.

Results

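Oxidative phosphorylation is carried out by 5 protein complexes of the mitochondrial inner membrane, and the transcripts described here are those of their nuclear-encoded subunits. They were chosen by gene symbol: symbols starting with Nduf, Uqcr, Cox4 to Cox8 or Atp5, together with Sdha to Sdhd, Cyc1 and Cycs. This gave 91 of the 19937 genes measured: 34 of complex I, 4 of complex II, 9 of complex III, 19 of complex IV and 17 of complex V, with cytochrome c (Cycs) and 7 assembly factors of complex I named Ndufaf1 to Ndufaf7. RNA was measured in mouse CD4+ T cells restimulated through their T cell receptor, either alone or together with ICOS, a costimulatory receptor of activated T cells. Naive CD4+ T cells purified from the spleen of B6 mice had been activated with anti-CD3 and anti-CD28 for 2 days and rested overnight. One group of 2 cultures then received anti-CD3 plus anti-ICOS for 20 min and the other group of 4 cultures received anti-CD3 alone, and in both the bound antibody was cross-linked with goat anti-hamster antibody for 8 h. Every culture of both groups thus carried the earlier CD28 signal, and no unstimulated cells were among them.

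Each culture was hybridised to 1 Affymetrix Mouse Gene ST array, a short-oligonucleotide array whose probe sets each report 1 intensity. Values are given as log2(intensity + 16), on which the median gene of an array read between 7.20 and 7.25. A difference is the mean of the 2 arrays with anti-CD3 plus anti-ICOS (the anti-ICOS arrays) minus the mean of the 4 anti-CD3 arrays, and anti-CD3 values are listed in the order of replicates 1 to 4. Adjusted p-values come from a limma fit over all 19937 genes with Benjamini-Hochberg correction, and 0.05 was the threshold. The cultures of a group are labelled as biological replicates, without saying whether they came from separate mice, so a p-value here measures the spread between cultures. Anti-CD3 replicate 4 stood apart from the other anti-CD3 arrays over the whole array, at r = 0.994 and 0.995 with the anti-ICOS arrays and 0.971, 0.977 and 0.965 with replicates 1 to 3. These correlations are across probe sets, which are not independent of each other. No measured value checks which treatment this culture received, so replicate 4 is grouped by its label alone, and if that label were wrong the differences with all 6 arrays would not compare the 2 treatments as named. Results are therefore given with all 6 arrays, without replicate 4, and against replicate 4 alone.

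Complex I passes electrons from NADH to ubiquinone, complex II does so from succinate, complex III hands them to cytochrome c, and complex IV passes them to oxygen. Complexes I, III and IV pump protons in doing so, and complex V, the ATP synthase, uses the proton gradient to make ATP. T cells that are activated raise glycolysis and also enlarge their mitochondria, and proliferating cells need the respiratory chain to regenerate NAD+ for biosynthesis. Most subunits are encoded in the nucleus, and the few encoded by mitochondrial DNA were not analysed here.

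Subunit transcripts of all 5 complexes lay close together in the 2 groups. With all 6 arrays 0 of the 91 genes were higher and 0 were lower past the threshold, where 0.271% of all genes were higher and 0% lower. The smallest adjusted p among the 91 was 0.414, for Ndufs4. At an unadjusted p under 0.05, 2 of the 91 were higher (Ndufb2 and Ndufaf4) and 3 were lower (Ndufs4, Ndufv1 and Atp5b), against 6.24% and 5.56% of all genes. The differences ran between -0.58 for Ndufv3 and 0.77 for Ndufaf4, with 44 above 0 and 47 below. Their median was -0.0082, beside -0.031 over all genes.

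The differences were also small in size. Their median size was 0.092, against 0.123 over all genes, and 3 of the 91 (Ndufaf4, Ndufv3 and Cox7a1), or 3.30%, differed by more than 0.3, against 13.5% of all genes. In bulk RNA, fewer cells of a type and less RNA per cell cannot be told apart. Averaged over its genes, complex I read 9.64 and 9.63 on the anti-ICOS arrays, against 9.70, 9.73, 9.57 and 9.62 on the anti-CD3 arrays. Complex V read 10.87 and 10.88 on the anti-ICOS arrays, against 10.92, 10.94, 10.78 and 10.85 on the anti-CD3 arrays. In both complexes the anti-ICOS arrays lay inside the range of the anti-CD3 arrays, as they did for complex III. For complexes II and IV the first anti-ICOS array lay at the lower end of the anti-CD3 range, as the plot of array means shows.

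**Figure D1:**
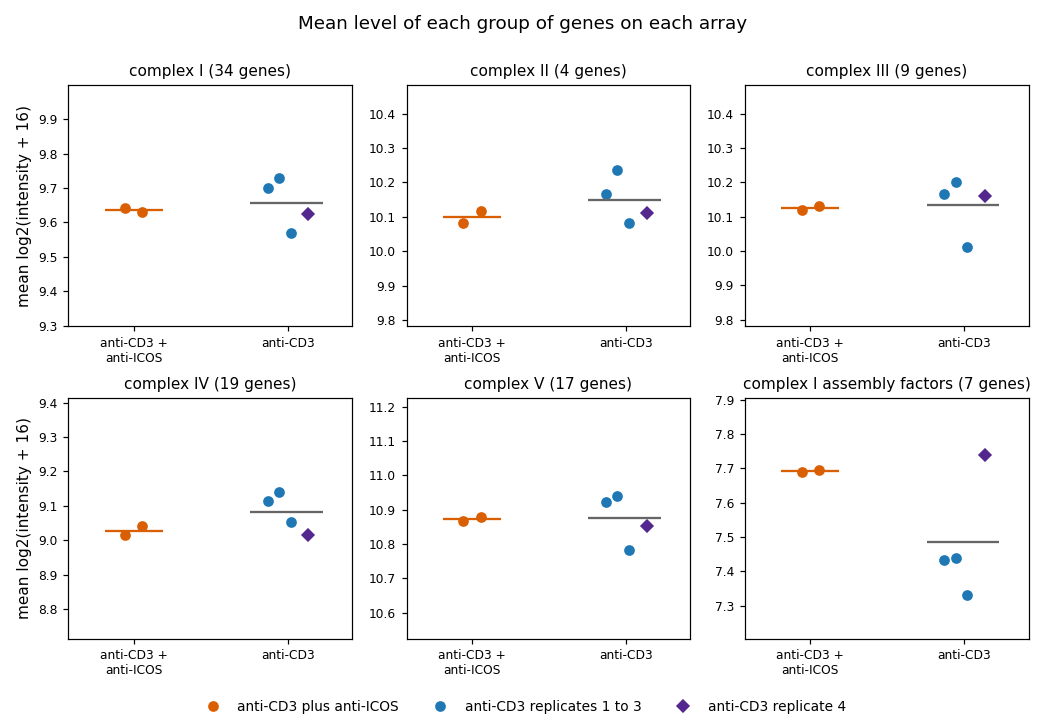
Mean log2(intensity + 16) over the genes of each complex, and over the 7 complex I assembly factors, on each array. Points are arrays, horizontal lines are group means, and each vertical axis spans the same range around its own mean. The anti-ICOS arrays lie within the anti-CD3 spread for complexes I, III and V and at its lower end for complexes II and IV. For the assembly factors they both read 7.69, above anti-CD3 replicates 1 to 3 and below replicate 4 at 7.74.

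**Figure D2:**
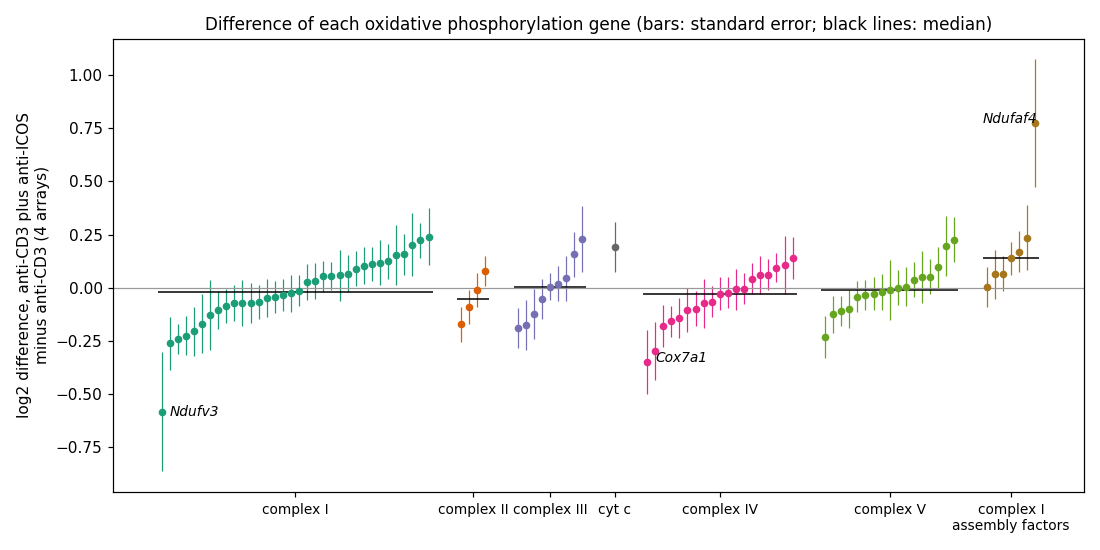
Difference of each of the 91 genes (mean with anti-CD3 plus anti-ICOS less the mean with anti-CD3 alone, log2 scale, all 6 arrays) with its standard error as a bar, ordered within each complex. Black lines are the medians of the complexes, which lie between -0.052 and 0.0057, and of the complex I assembly factors, at 0.14. None of the points is past the threshold.

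Complex I had 16 genes above 0 and 18 below, with a median difference of -0.020. Ndufs4, an accessory subunit of the part that oxidises NADH, read 11.06 and 11.10 on the anti-ICOS arrays, against 11.30, 11.37, 11.37 and 11.26 on the anti-CD3 arrays. Both anti-ICOS arrays lay below every anti-CD3 array, and the difference was -0.24 ± 0.070 (SE, adjusted p = 0.414). Ndufv1, the core subunit that binds FMN and takes electrons from NADH, read 9.40 and 9.44 on the anti-ICOS arrays, against 9.73, 9.75, 9.58 and 9.52 on the anti-CD3 arrays. It separated in the same way, at -0.23 ± 0.091 (SE, adjusted p = 0.42). Ndufb2, an accessory subunit of the membrane arm, read 7.56 and 7.56 on the anti-ICOS arrays, against 7.36, 7.26, 7.28 and 7.46 on the anti-CD3 arrays. Here both anti-ICOS arrays lay above every anti-CD3 array, at 0.22 ± 0.082 (SE, adjusted p = 0.417).

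Ndufv3, another accessory subunit of the NADH-oxidising part, had the lowest difference of the 91 genes. It read 9.31 and 9.38 on the anti-ICOS arrays, against 10.19, 10.26, 10.04 and 9.21 on the anti-CD3 arrays, a difference of -0.58 ± 0.28 (SE, adjusted p = 0.423). Replicate 4 read lowest of all 6 arrays, while anti-CD3 replicates 1 to 3 lay above both anti-ICOS arrays. Ndufs1, the large iron-sulfur core subunit, read 9.01 and 8.88 on the anti-ICOS arrays, against 8.68, 8.62, 8.52 and 8.996 on the anti-CD3 arrays, a difference of 0.24 ± 0.14 (SE, adjusted p = 0.434). Replicate 4 lay between the 2 anti-ICOS arrays and the other anti-CD3 arrays lay lower. Ndufb11, a membrane-arm subunit, read 10.87 and 11.05 on the anti-ICOS arrays, against 11.21, 11.31, 11.11 and 10.71 on the anti-CD3 arrays. Its groups overlapped, since replicate 4 lay lowest of the 6, and the difference was -0.13 ± 0.17 (SE, adjusted p = 0.669). A dimmer probe set of Ndufb11 differed by -0.021, with replicate 4 again lowest.

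The core subunit gene Ndufs3 had the largest p of complex I. It read 10.31 and 10.30 on the anti-ICOS arrays, against 10.32, 10.39, 10.23 and 10.33 on the anti-CD3 arrays, a difference of -0.013 ± 0.073 (SE, adjusted p = 0.927). The 6 measured core subunits (Ndufs1, Ndufs3, Ndufs7, Ndufs8, Ndufv1 and Ndufv2) had a median difference of -0.020, and the 28 accessory subunits had -0.0028. Ndufab1 encodes the mitochondrial acyl carrier protein. Beside Ndufb2, the accessory genes Ndufa11 and Ndufab1 had both anti-ICOS arrays above every anti-CD3 array, where 8.51% of all genes did. Their differences were 0.11 ± 0.080 and 0.057 ± 0.066 (SE, adjusted p = 0.482 and 0.631). A dimmer probe set of Ndufab1 differed by 0.45, with replicate 4 between the anti-ICOS arrays.

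Complex II, succinate dehydrogenase, is also an enzyme of the tricarboxylic acid cycle. Its 4 genes did not move as a block: 1 difference was above 0 and 3 were below, with a median of -0.052. Sdha, the flavoprotein, read 10.93 and 10.98 on the anti-ICOS arrays, against 11.10, 11.12, 10.93 and 11.04 on the anti-CD3 arrays, a difference of -0.092 ± 0.079 (SE, adjusted p = 0.536). Sdhb, the iron-sulfur subunit, read 9.90 and 9.93 on the anti-ICOS arrays, against 9.81, 9.90, 9.76 and 9.87 on the anti-CD3 arrays, a difference of 0.078 ± 0.072 (SE, adjusted p = 0.556). The groups overlapped for Sdha, and for Sdhb both anti-ICOS arrays lay just above every anti-CD3 array.

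The membrane anchors Sdhc and Sdhd bind ubiquinone. Sdhd read 9.54 and 9.62 on the anti-ICOS arrays, against 9.76, 9.88, 9.69 and 9.68 on the anti-CD3 arrays, with both anti-ICOS arrays below all 4, at -0.17 ± 0.084 (SE, adjusted p = 0.423). Sdhc read 9.97 and 9.94 on the anti-ICOS arrays, against 10.001, 10.06, 9.96 and 9.85 on the anti-CD3 arrays, inside their range, at -0.012 ± 0.081 (SE, adjusted p = 0.94). Subunits that lay on opposite sides of their anti-CD3 arrays were thus Sdhb, above, and Sdhd, below, and neither was past the threshold.

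Complex III had 5 genes above 0 and 4 below, with a median of 0.0057. Cyc1, the catalytic cytochrome c1 subunit, had the lowest SD on the anti-CD3 arrays among the 91 genes: it read 10.17 and 10.19 on the anti-ICOS arrays, against 10.18, 10.17, 10.17 and 10.18 on the anti-CD3 arrays. The anti-CD3 values had an SD of 0.0037 (n = 4), and the difference was 0.0057 ± 0.063 (SE, adjusted p = 0.964). The core proteins Uqcrc1 and Uqcrc2 hold the complex together on the matrix side. Uqcrc2 read 11.13 and 11.23 on the anti-ICOS arrays, against 11.45, 11.48, 11.32 and 11.23 on the anti-CD3 arrays, a difference of -0.19 ± 0.094 (SE, adjusted p = 0.423). Uqcrc1 read 10.60 and 10.72 on the anti-ICOS arrays, against 10.88, 10.95, 10.92 and 10.59 on the anti-CD3 arrays, a difference of -0.17 ± 0.12 (SE, adjusted p = 0.462). In both, replicates 1 to 3 lay above the 2 anti-ICOS arrays and replicate 4 did not.

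The hinge protein gene Uqcrh, whose product helps cytochrome c1 dock cytochrome c, read 11.69 and 11.80 on the anti-ICOS arrays, against 11.62, 11.58, 11.40 and 11.75 on the anti-CD3 arrays, a difference of 0.16 ± 0.11 (SE, adjusted p = 0.466). Uqcr11, a small subunit, read 9.73 and 9.56 on the anti-ICOS arrays, against 9.42, 9.30, 9.18 and 9.75 on the anti-CD3 arrays, a difference of 0.23 ± 0.16 (SE, adjusted p = 0.468). For both genes replicates 1 to 3 lay below the 2 anti-ICOS arrays, and replicate 4 lay between them for Uqcrh and above them for Uqcr11. On a dimmer probe set of Uqcr11, which differed by 0.14, replicates 1 and 4 both lay between the anti-ICOS arrays. The Rieske iron-sulfur protein gene Uqcrfs1 read 8.26 and 8.21 on the anti-ICOS arrays, against 8.22, 8.32, 8.08 and 8.24 on the anti-CD3 arrays, inside their range, at 0.020 ± 0.084 (SE, adjusted p = 0.901). Cycs, which encodes the mobile electron carrier that also triggers caspases when it leaves mitochondria, read 11.84 and 11.64 on the anti-ICOS arrays, against 11.57, 11.53, 11.36 and 11.74 on the anti-CD3 arrays. Its difference was 0.19 ± 0.12 (SE, adjusted p = 0.444), with replicate 4 between the anti-ICOS arrays and the other anti-CD3 arrays lower.

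Complex IV, cytochrome c oxidase, had 6 genes above 0 and 13 below, with a median of -0.028. The list holds 8 isoform genes that are known mainly from other tissues or conditions: Cox4i2 from lung and low oxygen, Cox6a2, Cox7a1 and Cox8b from muscle, Cox6b2, Cox7b2 and Cox8c from testis, and Ndufa4l2 from low oxygen. Of these 7 were below 0, with a median of -0.15, while the other 11 genes had 5 above 0 and 6 below, with a median of -0.0046. Averaged over the 8 isoform genes, the anti-ICOS arrays read 6.68 and 6.72, against 6.90, 6.91, 6.92 and 6.71 on the anti-CD3 arrays. Replicate 4 thus lay between the anti-ICOS arrays.

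Cox7a1 had the lowest difference of the complex. It read 6.84 and 6.88 on the anti-ICOS arrays, against 7.35, 7.37, 7.27 and 6.85 on the anti-CD3 arrays, a difference of -0.35 ± 0.15 (SE, adjusted p = 0.421). Cox8c read 6.74 and 6.81 on the anti-ICOS arrays, against 7.08, 7.02, 7.35 and 6.83 on the anti-CD3 arrays, a difference of -0.30 ± 0.14 (SE, adjusted p = 0.423). For Cox7a1 replicate 4 lay between the anti-ICOS arrays, and for Cox8c it was the anti-CD3 array nearest to them. Cox4i2 read 7.08 and 7.18 on the anti-ICOS arrays, against 7.33, 7.34, 7.24 and 7.26 on the anti-CD3 arrays, with no overlap, at -0.16 ± 0.073 (SE, adjusted p = 0.423). Ndufa4l2 read 6.46 and 6.41 on the anti-ICOS arrays, against 6.67, 6.67, 6.55 and 6.41 on the anti-CD3 arrays, a difference of -0.14 ± 0.093 (SE, adjusted p = 0.461). Cox8c and Cox4i2 were the complex IV genes with both anti-ICOS arrays below every anti-CD3 array, where 14.7% of all genes lay so.

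None of the isoforms that most tissues use was past the threshold. Cox4i1, the common form of subunit 4, read 10.41 and 10.58 on the anti-ICOS arrays, against 10.37, 10.39, 10.19 and 10.47 on the anti-CD3 arrays, a difference of 0.14 ± 0.099 (SE, adjusted p = 0.479). Cox5a, which pairs with it in early assembly, read 9.87 and 9.86 on the anti-ICOS arrays, against 9.80, 9.89, 9.64 and 9.88 on the anti-CD3 arrays, a difference of 0.061 ± 0.090 (SE, adjusted p = 0.707). Cox6a1, the common form of subunit 6a, read 10.48 and 10.38 on the anti-ICOS arrays, against 10.26, 10.54, 10.06 and 10.43 on the anti-CD3 arrays, a difference of 0.11 ± 0.14 (SE, adjusted p = 0.663). In each of these 3 genes the groups overlapped.

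Cox7a2, the common form of subunit 7a, had the largest p of the complex. It read 9.75 and 9.82 on the anti-ICOS arrays, against 9.77, 9.84, 9.84 and 9.72 on the anti-CD3 arrays, a difference of -0.0046 ± 0.072 (SE, adjusted p = 0.974). Ndufa4, first assigned to complex I and now placed in complex IV, read 8.56 and 8.49 on the anti-ICOS arrays, against 8.62, 8.67, 8.39 and 8.46 on the anti-CD3 arrays, a difference of -0.0082 ± 0.098 (SE, adjusted p = 0.967). Both lay inside the anti-CD3 range. Cox7a2l, a factor that joins complexes III and IV into supercomplexes and of which C57BL/6 mice carry a short variant, read 9.31 and 9.35 on the anti-ICOS arrays, against 9.28, 9.21, 9.17 and 9.27 on the anti-CD3 arrays. Both anti-ICOS arrays lay above every anti-CD3 array, at 0.095 ± 0.070 (SE, adjusted p = 0.488). On a dimmer probe set of Cox7a2l replicate 4 lay between the anti-ICOS arrays.

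Complex V had 8 genes above 0 and 9 below, with a median of -0.0090. Its catalytic head is built from alpha and beta subunits, encoded by Atp5a1 and Atp5b. Atp5b read 12.54 and 12.61 on the anti-ICOS arrays, against 12.87, 12.91, 12.82 and 12.62 on the anti-CD3 arrays, with both anti-ICOS arrays below all 4, at -0.23 ± 0.097 (SE, adjusted p = 0.421). Atp5a1 read 11.01 and 11.10 on the anti-ICOS arrays, against 11.25, 11.27, 11.13 and 11.07 on the anti-CD3 arrays, a difference of -0.13 ± 0.085 (SE, adjusted p = 0.466). For Atp5b the margin to replicate 4 was narrow, and for Atp5a1 replicate 4 lay between the anti-ICOS arrays. Atp5d, the delta subunit of the central stalk, read 12.81 and 12.86 on the anti-ICOS arrays, against 12.94, 13.02, 12.87 and 12.95 on the anti-CD3 arrays, with no overlap, at -0.11 ± 0.073 (SE, adjusted p = 0.461).

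Atp5l, subunit g of the membrane part, read 10.23 and 10.14 on the anti-ICOS arrays, against 9.92, 9.84, 9.89 and 10.17 on the anti-CD3 arrays, a difference of 0.23 ± 0.11 (SE, adjusted p = 0.423). Replicate 4 lay between the anti-ICOS arrays, and the other anti-CD3 arrays lay lower. Atp5l had 5 probe sets, of which the one given here was the brightest, and 1 of the other 4 had a difference below 0. On the probe sets of Atp5l that differed by -0.066, 0.051 and 0.12 the anti-ICOS arrays overlapped replicates 1 to 3. On the one that differed by 0.14 they lay above replicates 1 to 3. The genes Atp5g1, Atp5g2 and Atp5g3 encode the same mature c subunit of the rotating ring. Atp5g1 read 11.30 and 11.29 on the anti-ICOS arrays, against 11.34, 11.40, 11.25 and 10.98 on the anti-CD3 arrays, a difference of 0.051 ± 0.12 (SE, adjusted p = 0.819). Replicate 4 was the lowest of the 6 arrays for this gene.

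Atp5g2 read 12.31 and 12.34 on the anti-ICOS arrays, against 12.37, 12.43, 12.29 and 12.34 on the anti-CD3 arrays, a difference of -0.035 ± 0.071 (SE, adjusted p = 0.791). Its 3 probe sets disagreed in sign, with differences between -0.12 and 0.31. Atp5g3 read 10.84 and 10.89 on the anti-ICOS arrays, against 10.90, 10.96, 10.78 and 10.80 on the anti-CD3 arrays, and had the largest p of complex V, at 0.00062 ± 0.081 (SE, adjusted p = 0.997). Close copies such as these can share probe signal. Of the 91 genes 18 had several probe sets, and in 8 of the 18 these differed in sign.

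All 7 complex I assembly factors had a difference above 0, where 42.3% of all genes did, and their median was 0.14. Against replicate 4 alone their median was -0.040, beside -0.013 over all genes. Assembly factors build the complex and are not part of the finished enzyme. Ndufaf4, which works with Ndufaf3 early in assembly, read 7.62 and 7.47 on the anti-ICOS arrays, against 6.59, 6.63, 6.34 and 7.52 on the anti-CD3 arrays. This was the highest difference of the 91 genes, 0.77 ± 0.30 (SE, adjusted p = 0.417), and replicate 4 lay between the anti-ICOS arrays. Ndufaf5, which in human cells hydroxylates the subunit NDUFS7, read 6.70 and 6.79 on the anti-ICOS arrays, against 6.52, 6.40, 6.28 and 6.84 on the anti-CD3 arrays, a difference of 0.24 ± 0.15 (SE, adjusted p = 0.455). Replicate 4 lay above both anti-ICOS arrays, and replicates 1 to 3 lay below them. Ndufaf2, a relative of the subunit Ndufa12, was the factor with both anti-ICOS arrays above every anti-CD3 array, at 0.14 ± 0.078 (SE, adjusted p = 0.433). Of all genes 8.51% separated in this way.

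The promoters of Ndufaf4, Cox6a1 and Ndufv3 are shown because the first and last of these genes lie at the 2 ends of the differences, and Cox6a1 holds both motifs searched for while differing by 0.11. Those of Atp5l, which differed by 0.23, and Ndufb6, with a difference below 0, also hold both motifs and are not shown. Each sequence is the 250 bases before the annotated start from RefSeq on build GRCm38.p6, 5′ to 3′ on the strand of the gene: chr4:24897833-24898082 on the plus strand for Ndufaf4, chr5:115348959-115349208 on the minus strand for Cox6a1 and chr17:31519865-31520114 on the plus strand for Ndufv3. Capitals mark CATGCGC or its reverse complement GCGCATG, the core of the motif of nuclear respiratory factor 1 (NRF1), and CCGGAAG or its reverse complement CTTCCGG, a core motif of ETS factors such as the GABP complex. Where the first motif stands on both strands its 2 matches overlap and the capitals run on.
Ndufaf4: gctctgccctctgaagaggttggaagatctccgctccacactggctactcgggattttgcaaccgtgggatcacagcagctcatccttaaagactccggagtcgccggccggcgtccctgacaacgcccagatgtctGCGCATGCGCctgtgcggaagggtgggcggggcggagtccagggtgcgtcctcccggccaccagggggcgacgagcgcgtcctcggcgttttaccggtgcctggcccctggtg
Cox6a1: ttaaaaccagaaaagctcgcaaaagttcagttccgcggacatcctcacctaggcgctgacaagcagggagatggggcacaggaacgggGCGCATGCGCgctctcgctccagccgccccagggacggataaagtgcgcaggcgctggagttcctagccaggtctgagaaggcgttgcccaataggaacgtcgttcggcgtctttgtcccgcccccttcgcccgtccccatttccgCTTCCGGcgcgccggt
Ndufv3: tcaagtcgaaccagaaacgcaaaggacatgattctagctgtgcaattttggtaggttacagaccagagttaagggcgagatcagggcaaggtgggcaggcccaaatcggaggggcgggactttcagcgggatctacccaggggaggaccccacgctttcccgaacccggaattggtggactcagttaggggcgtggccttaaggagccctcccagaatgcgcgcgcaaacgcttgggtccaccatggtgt
Both factors are known regulators of respiratory chain genes. The NRF1 letters begin 113 bases before the start of Ndufaf4 and 162 bases before that of Cox6a1, on both strands in each. The ETS letters begin 16 bases before the start of Cox6a1, and neither motif is in the Ndufv3 window.

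A promoter was found for 74 of the 91 genes. The NRF1 letters were in 12 of the 74, among them Cycs, Sdhb, Cox5b and Ndufaf4, or 16.2%, against 3.68% of 27025 genes with a promoter of the same length. The ETS letters were in 13 of the 74, or 17.6%, against 7.83%. Differences of the 12 genes with the NRF1 letters ran between -0.10 and 0.77, with a median of 0.092, against -0.0064 for the 62 genes without them. Those of the 13 genes with the ETS letters ran between -0.17 and 0.23, with a median of 0.061, against -0.0082 for the 61 without them. Genes with either motif thus lay on both sides of 0. A match is a string of letters, and no binding was measured.

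Replicate 4 read like the anti-ICOS arrays for most of these transcripts. The median size of the gap between the anti-ICOS mean and replicate 4 was 0.047 over the 91 genes, against 0.117 between the anti-ICOS mean and replicates 1 to 3. Over all genes the corresponding gaps were 0.068 and 0.164. Replicate 4 lay outside the range of replicates 1 to 3 in 59 of the 91 genes, above in 27 and below in 32, where 34.5% of all genes lay above and 42.5% below. Both anti-ICOS arrays lay above replicates 1 to 3 in 25 of the 91 and below in 23, against 28.5% and 35.1% of all genes. These comparisons share replicates 1 to 3.

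The genes in which replicate 4 differed most from the mean of replicates 1 to 3 were Ndufv3 at -0.95, Ndufb11 at -0.50 and Cox7a1 at -0.48, and on the other side Ndufaf4 at 1.00, Uqcr11 at 0.45 and Ndufaf5 at 0.44. Of these, Ndufb11 differed between the anti-ICOS mean and replicate 4 by 0.25, Ndufv3 by 0.13 and Uqcr11 by -0.11, and the other 3 by less than 0.1. On dimmer probe sets replicate 4 differed less from the mean of replicates 1 to 3, by -0.22 for Ndufb11 and 0.16 for Uqcr11. Replicate 4 lay above replicates 1 to 3 in all 7 complex I assembly factors. Against all 4 anti-CD3 arrays, both anti-ICOS arrays lay above in 6 of the 91 genes and below in 7, where 8.51% and 14.7% of all genes did. The 6 were Cox7a2l, Ndufa11, Ndufab1, Ndufaf2, Ndufb2 and Sdhb, and the 7 were Atp5b, Atp5d, Cox4i2, Cox8c, Ndufs4, Ndufv1 and Sdhd.

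Without replicate 4, 18 of the 91 genes were past the threshold, 8 higher and 10 lower, against 17.1% and 12.7% of all genes. The 91 genes gave 8.79% and 10.99%, so the share of higher genes was below that of all genes and the share of lower genes near it. In the lower direction were 5 complex I subunits (Ndufa9, Ndufb8, Ndufs4, Ndufv1 and Ndufv3), Uqcrc1, the isoforms Cox7a1, Cox8b and Cox8c, and Atp5b. Higher were the complex I subunits Ndufb2, Ndufb10 and Ndufs1, the assembly factors Ndufaf4, Ndufaf5 and Ndufaf6 (the last with replicate 4 far from its group), Uqcr11 and Atp5l. Complexes I, III and V each had members in both directions, and 0 of 4 complex II genes passed. Each of these calls rests on the brightest probe set of its gene.

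The sizes without replicate 4 ran up to 1.02 for Ndufaf4 (adjusted p = 0.00046), a gene that read 7.62 and 7.47 on the anti-ICOS arrays, against 6.59, 6.63 and 6.34 on replicates 1 to 3. Ndufv3 differed by -0.82 (adjusted p = 0.00049) and Cox7a1 by -0.47 (adjusted p = 0.0022). The change of Ndufs4 was -0.26 (adjusted p = 0.0182), close to the -0.24 with all 6 arrays, and that of Ndufb2 was 0.26 (adjusted p = 0.0203). Atp5b differed by -0.29 (adjusted p = 0.0136), Ndufv1 by -0.27 (adjusted p = 0.0311) and Ndufs1 by 0.34 (adjusted p = 0.0159). With array weights, which count replicates 1 to 4 at 4.53, 1.07, 0.38 and 0.15, 13 of the 91 were higher and 19 lower, against 22.8% and 24.4% of all genes. Against replicate 4 alone 0 of the 91 passed, where 0.176% of all genes were higher and 0% lower, and the differences were 0.020 for Ndufaf4, 0.13 for Ndufv3, 0.010 for Cox7a1, -0.17 for Ndufs4 and 0.099 for Ndufb2. Ndufaf4 and Cox7a1 thus differed from replicates 1 to 3 and hardly from replicate 4, while Ndufs4 kept most of its difference against replicate 4.

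**Figure D3:**
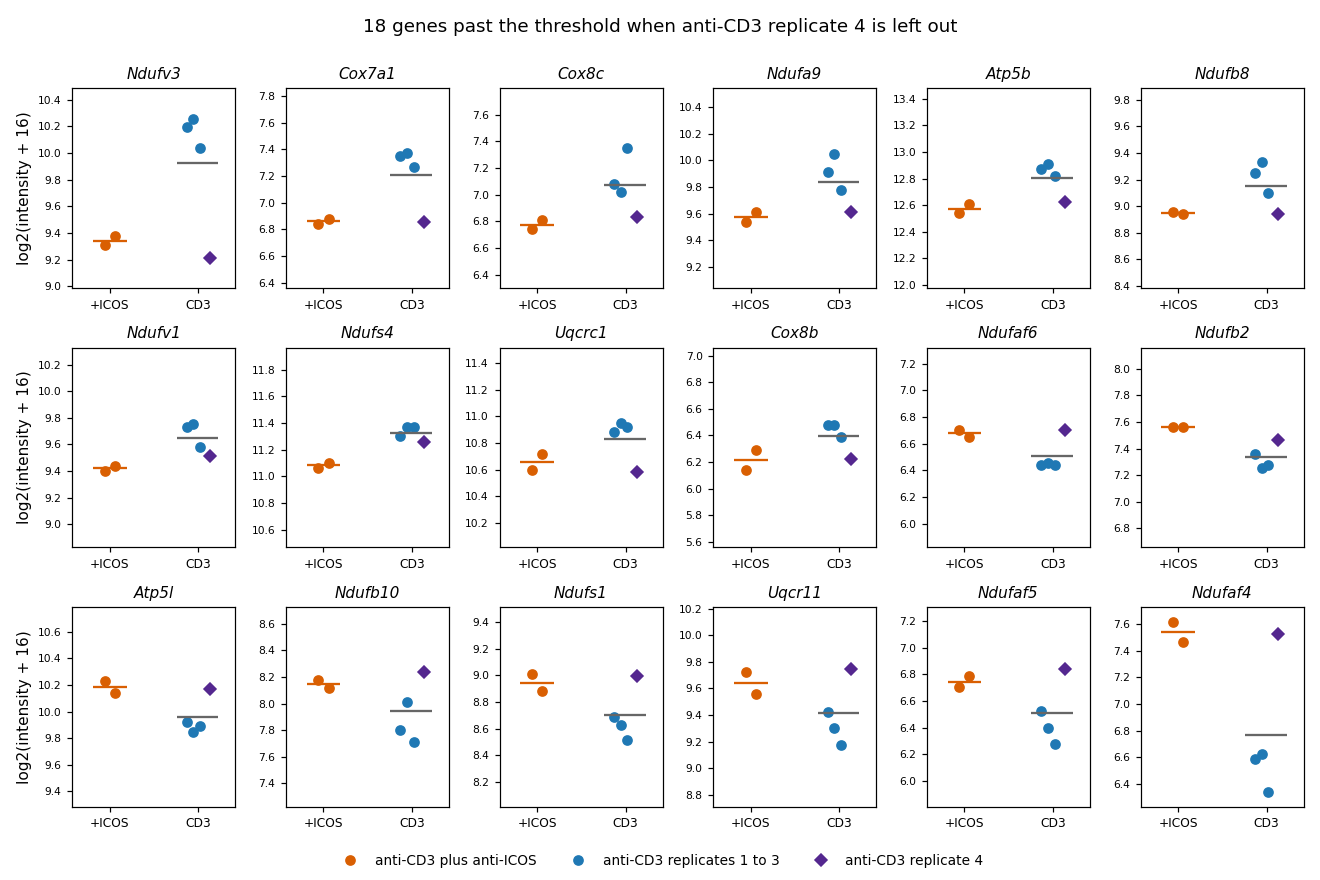
Values of the 18 genes past the threshold without anti-CD3 replicate 4, ordered by their difference without that array. The vertical axis is log2(intensity + 16), points are arrays, and horizontal lines are the means of the 2 anti-ICOS (+ICOS) and all 4 anti-CD3 (CD3) arrays. Replicate 4, drawn as a diamond, lies nearer to the anti-ICOS mean than to the mean of the other anti-CD3 arrays in all panels but that of Ndufs4, where it reads 11.26.

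Other genes that serve the respiratory chain were measured beside the subunits. Of 37 measured assembly factors of all complexes, the 7 above among them, 29 had a difference above 0, with a median of 0.084. None was past the threshold with all 6 arrays, and without replicate 4, 11 were higher and 1 was lower, against 17.1% and 12.7% of all genes. Outside the 7, the 30 factors had a median of 0.080, with 22 above 0. Against replicate 4 alone the medians were -0.046 for the 37 factors and -0.060 for these 30, beside -0.013 over all genes. Ttc19, a complex III factor, read 8.32 and 8.26 on the anti-ICOS arrays, against 7.84, 7.84, 7.85 and 8.21 on the anti-CD3 arrays, a difference of 0.36 ± 0.12 (SE, adjusted p = 0.414). Sdhaf1, which helps insert the iron-sulfur clusters of complex II, differed by 0.18 ± 0.073 (SE, adjusted p = 0.42). The factor that was lower without replicate 4 was Bcs1l, which inserts the Rieske protein into complex III, at -0.35 (adjusted p = 0.0456).

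Of 14 regulators of mitochondrial genes, 13 had a difference above 0, against 42.3% of all genes, with a median of 0.16. Their median against replicate 4 alone was -0.037. Without replicate 4, 4 of the 14 were higher and 0 lower, against 17.1% and 12.7% of all genes. Myc, a growth regulator that activates many mitochondrial genes, read 10.47 and 10.50 on the anti-ICOS arrays, against 9.85, 9.84, 9.68 and 10.37 on the anti-CD3 arrays, a difference of 0.55 ± 0.18 (SE, adjusted p = 0.414). Pprc1, a coactivator of the PGC-1 family that acts with NRF1, read 8.09 and 8.16 on the anti-ICOS arrays, against 7.26, 7.31, 7.24 and 8.02 on the anti-CD3 arrays, a difference of 0.67 ± 0.22 (SE, adjusted p = 0.414). In both genes replicate 4 was the anti-CD3 array nearest to the anti-ICOS arrays, and replicates 1 to 3 lay lower. Polrmt, the RNA polymerase of mitochondria, differed by 0.15 ± 0.090 (SE, adjusted p = 0.44).

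Among 13 tricarboxylic acid cycle genes the median was 0.0055, with 7 above 0 and 6 below. Idh3g, a subunit of isocitrate dehydrogenase, differed by -0.24 ± 0.12 (SE, adjusted p = 0.423) and was the 1 gene of the 13 past the threshold without replicate 4, in the lower direction, where 12.7% of all genes were lower and 17.1% higher. Suclg2, a subunit of succinyl-CoA ligase, differed by 0.24 ± 0.15 (SE, adjusted p = 0.454) and Fh1, fumarase, by -0.13 ± 0.11 (SE, adjusted p = 0.532). The 77 mitochondrial ribosomal protein genes, whose products translate the subunits encoded by mitochondrial DNA, had a median of 0.036, with 46 above 0. Their median against replicate 4 alone was -0.037. Without replicate 4, 8 of the 77 were higher and 3 lower, both below the shares of all genes (17.1% and 12.7%), and with all 6 arrays none passed. The smallest p-values were those of Mrps18b at 0.30 ± 0.092, Mrps34 at 0.36 ± 0.13 and Mrpl20 at 0.28 ± 0.10 (SE, adjusted p = 0.414, 0.417 and 0.417).

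**Figure D4:**
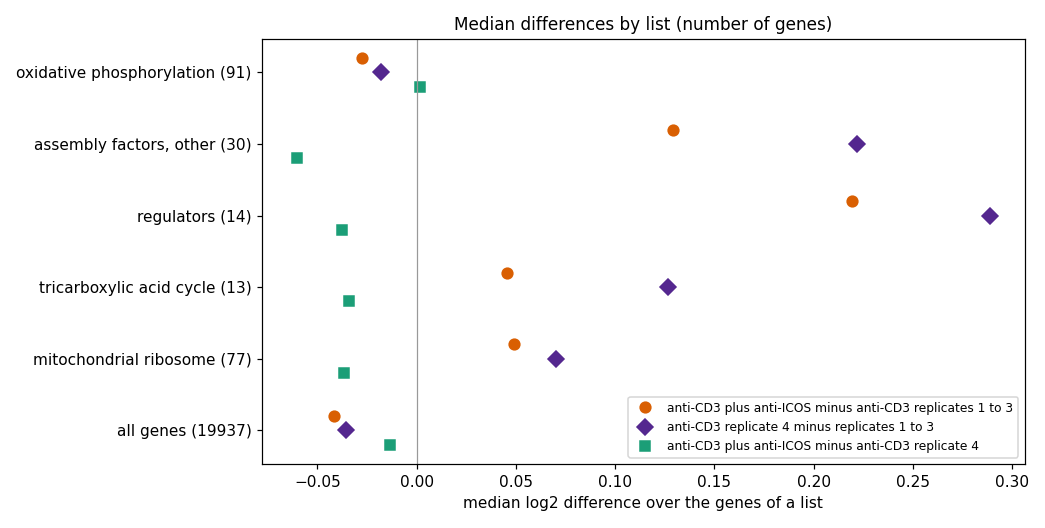
Median log2 difference over the genes of each list, with the number of genes in brackets, for the anti-ICOS mean minus anti-CD3 replicates 1 to 3 (circles), replicate 4 minus replicates 1 to 3 (diamonds) and the anti-ICOS mean minus replicate 4 (squares). The first 2 share replicates 1 to 3. The oxidative phosphorylation genes lie near 0 in all 3, at -0.028, -0.018 and 0.0019, and the regulators lie at 0.22, 0.29 and -0.037.

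The cultures also differed in transcripts of other cell types, which were measured beside these values. Of 5 T cell markers, Cd3e, Cd4 and Cd28 lay lower on both anti-ICOS arrays than on all 4 anti-CD3 arrays, where 14.7% of all genes did. The list median was -0.27, beside -0.031 over all genes. For Cd3d and Cd3g the groups overlapped, at differences of -0.033 and -0.010. The summed T cell marker intensity was 17906 and 18563 on the anti-ICOS arrays, against 19056 to 22486 on the anti-CD3 arrays, with replicate 4 the lowest of the 4. The summed intensity of 8 monocyte and macrophage markers was 1765 and 2279 on the anti-ICOS arrays, against 985 to 1598 on the anti-CD3 arrays, of which replicate 4 was the highest. Lyz2 and Adgre1 had the largest differences of the 8, at 1.89 and 1.34, and Fcgr1 was the 1 below 0, at -0.10. Marker by marker, replicate 4 lay above replicates 1 to 3 in 3 of the 8 and below in 3. All 5 measured T cell markers read above 11 on every array, and B cell genes were bright too. Cd79b, part of the B cell receptor, read 12.58 and 12.70 on the anti-ICOS arrays, against 12.44, 12.52, 12.31 and 12.66 on the anti-CD3 arrays, in cultures labelled as CD4+ T cells.

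Among the other marker lists the median difference was 0.45 for 6 NK cell, 0.77 for 6 neutrophil, 0.50 for 6 mast cell and basophil, 0.17 for 4 B cell and 0.093 for 10 dendritic cell markers. Of the 6 neutrophil markers 5 were above 0 and 1, Camp, was below, at -0.20. For Camp both anti-ICOS arrays lay below all 4 anti-CD3 arrays. The summed intensity was 3502 and 3514 for NK cell markers on the anti-ICOS arrays, against 2499 to 3434 on the anti-CD3 arrays. It was 511 and 1331 for neutrophil markers on the anti-ICOS arrays, against 368 to 462 on the anti-CD3 arrays, and 454 and 597 for mast cell and basophil markers, against 292 to 316. For B cell markers it was 14765 and 16236, against 13147 to 16044, and for dendritic cell markers 24714 and 27020, against 22817 to 27775. Flt3 (1.26, adjusted p = 0.0032) among the dendritic cell markers and the carbonic anhydrase gene Car1 (2.09, adjusted p = 0.0023), the 1 measured erythroid marker, were past the threshold with all 6 arrays. Of the 10 dendritic cell markers 7 were above 0 and 3 below. Xcr1, at -0.19, had both anti-ICOS arrays below all 4 anti-CD3 arrays. The part of other cells in the differences of the respiratory chain genes was not tested.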

How the data were processed

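Total RNA (1 ug per culture, biotin-labelled) from 6 cultures was hybridised to 1-colour arrays. Sample titles gave the groups and replicate numbers, and no batch is stated. The authors deposited linear intensities, 1 per probe set, from 7.23 to 22176. Per the submitters' processing notes, MAS5 was used. For normalization, background correction, centring and build the method is not given in the sources used here. A shift of most genes in 1 direction may have been removed before deposit.

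The platform annotation gave 1 gene symbol to 21640 of 34760 probe sets, several to 1321 and none here to 11799. For 954 genes with more than 1 probe set, the one with the highest mean log2 value was kept. The 91 genes used 117 probe sets, and the 13 subunits encoded by mitochondrial DNA, Ndufaf8, Sco2 and Cox16 were not analysed here. No filter on dim genes was used, and the offset of 16 makes differences of dim genes smaller.

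All 6 arrays were compared with limma 3.58.1 (lmFit and eBayes, 4 residual degrees of freedom) in R 4.3.3. In the fit against replicate 4 alone, replicates 1 to 3 added only to the estimate of spread. The fit was tested on simulated data. The members and lists were chosen with earlier results of these data known, so lists are described by counts and medians, with no test of their own. Genes given on every array were named subunits, the 3 smallest p-values and the largest in complexes I, III, IV and V, and the 3 genes furthest each way in replicate 4. Of each list of assembly factors, regulators, cycle genes and ribosomal proteins the 3 smallest p-values are given. Cell type markers are given by medians and sums, and those named singly were chosen after their values were seen. They were past the threshold, apart on both arrays, bright, largest in difference or opposite to their list.

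The alternatives were array weights, replicate number as a block, median centring, quantile normalization, the dimmest 40% of genes left out, averaging all probe sets of a gene, offsets of 1 and 64, a trended and robust prior, each array left out, replicate 4 as the only anti-CD3 array, the 15 assembly factors and restricted isoforms left out, and other thresholds. Deviations of same-numbered arrays from their group means correlated at r = -0.039 and 0.10. With 2 anti-ICOS arrays the deviations of 1 mirror those of the other, so these values can neither show nor exclude pairing. The sample titles state no pairing, and none was assumed outside the replicate block. The number of arrays limits the precision. Python 3.11.15 and matplotlib 3.10.9 drew the plots.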

Additional observations from a re-analysis of the deposited data

Results flagged for a closer look

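In 3 of the 91 genes, anti-CD3 replicate 4 lay further from the other anti-CD3 arrays than Dixon's limit for 4 values allows, where the ratio is the gap to the nearest array over the range of the group. For Ndufa13, a complex I accessory subunit also known as GRIM-19, the anti-ICOS arrays read 10.05 and 10.03, and replicate 4 read 10.0547, against 9.86, 9.88 and 9.88 on replicates 1 to 3. For the assembly factor Ndufaf6 the anti-ICOS arrays read 6.71 and 6.65, and replicate 4 read 6.70148, against 6.44, 6.45 and 6.44 on replicates 1 to 3. For the complex I subunit Ndufc2 the anti-ICOS arrays read 12.12 and 12.21, and replicate 4 read 12.0962, against 12.29, 12.28 and 12.28 on replicates 1 to 3. In all 3 genes replicate 4 lay on the side of the anti-ICOS arrays. Chance sets any of the 4 arrays apart in about 1 of 20 genes. Over all 19937 genes an anti-CD3 array lay apart in 8.69%, and in 6% it was replicate 4.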

How the results depend on the processing

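With all 6 arrays weighted alike, 0 of the 91 genes passed in either direction under median centring, quantile normalization, the filter on dim genes, averaged probe sets, offsets of 1 and 64, a trended and robust prior and a threshold of 0.1. Array weights gave 13 higher and 19 lower. The replicate block gave 7 higher and 17 lower, against 17% and 15.9% of all genes, and its contrast rests on replicates 1 and 2 of each group. Without adjustment, 2 were higher and 3 lower at p under 0.05. Leaving out 1 array in turn gave 0 to 8 higher and 0 to 10 lower, and only leaving out replicate 4 gave more than 0. Over these fits the median difference ran from -0.028 to 0.018 for the 91 genes, -0.047 to 0.0044 for complex I, -0.073 to -0.025 for complex II, -0.024 to 0.0071 for complex III, -0.051 to -0.0064 for complex IV and -0.037 to 0.026 for complex V, and all of these values were below 0 in complexes II and IV. Quantile normalization gave medians of -0.045 for the 91 genes and -0.059 for complex III. Array weights gave -0.051 for the 91 genes, -0.038 for complex III and -0.083 for complex IV. The replicate block gave -0.075 for the 91 genes, -0.11 for complex II, -0.067 for complex III and -0.094 for complex IV. Against replicate 4 alone the medians were 0.0019 for the 91 genes, 0.0065 for complex I, -0.022 for complex II, -0.0067 for complex III, 0.018 for complex IV and 0.0044 for complex V, so there the sign turned in all but complex II. The cause of these moves was not tested. Of 1451 values of single genes under the alternatives, 74 passed the threshold where all 6 arrays weighted alike did not, and in 62 genes a difference that passed in neither fit changed sign under at least 1 alternative. Signal over background was not analysed here, which limits what the dim isoform genes can show.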
